A study of Mus musculus with 281 samples.

Results

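Intermediate cells (IMCs) of the cochlear stria vascularis (SV) from Slc26a4-/- mice were compared with IMCs from Slc26a4+/- control mice sequenced under the same run date. The comparison held 35 SV cells, 12.5% of those of the series, each of which was 1 sample with its own Smart-Seq2 library. Of these, 12 were Slc26a4-/- cells out of the 22 collected under that run date, and 23 were Slc26a4+/- cells out of 40. Cells were chosen by their own RNA: a score was taken as the mean of log2(CPM + 1) over *Kcnj10*, *Met*, *Dkk3* and *Nrp2*, where CPM is counts per 1000000 counts of a cell, and this IMC score had to lead the scores of 4 other marker sets by at least 1. The other sets stood for spindle cells (SCs; *Anxa1*, *Wfdc18*, *Krt18*, *P2rx2*), root cells (RCs; *Epyc*, *Fxyd6*, *Lum*, *Gas1*), marginal cells (MCs; *Kcnq1*, *Kcne1*, *Lrp2*, *Dnase1*) and a set without a cell name (*Crhbp*, *Slc26a7*, *Vmo1*, *Otx2*). The levels of these genes are therefore a description of the choice and not a result.

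The SV is the ion-transporting epithelium that secretes the potassium-rich endolymph of the cochlea and sets its positive potential. IMCs are its melanocyte-derived middle layer, and their potassium channel Kir4.1, the product of *Kcnj10*, carries the potassium step on which that potential depends. *Slc26a4* encodes pendrin, a chloride-bicarbonate exchanger made in the SC and RC of the SV and not in IMCs. Loss of pendrin acidifies endolymph and leads to deafness with an enlarged vestibular aqueduct in people and mice.

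All mice were males on the 129S6 background per the study's methods, and the labels give the strain as the genotype alone. The Slc26a4-/- IMCs came from 3 ages, with 5 cells at postnatal day (P) 29, 6 at P33 and 1 at P34. The Slc26a4+/- IMCs came from P26 (8 cells), P28 (1 cell) and P33 (14 cells), so that P33 was the only age held by both genotypes. The constitutive loss of *Slc26a4* is in every cell of the animal, and the heterozygous mice carry 1 functional allele. SVs were stripped from the lateral wall, dissociated with collagenase, and cells were drawn up singly with a glass micropipette, so the cells are those that survived dissociation and were picked by eye. The labels name no animal for a cell, and each genotype was therefore treated as 1 sample: no p-value was made from cells, and differences between genotypes are given as ratios of mean CPM beside the spread of the cells. Cells of 1 genotype and age form an age pool, which may hold several mice, and different pools cannot share a mouse. Of the 7 wild-type (Slc26a4+/+) IMCs of the same run date (P29, P33 and P34), only side-by-side values are given.

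The choice separated the IMCs clearly. The IMC score ranged from 10.4 to 11.8 in the Slc26a4-/- cells (median 11.2), and from 5.77 to 11.7 in the Slc26a4+/- cells (median 11.1). The cell nearest to the limit on the inside, a P33 Slc26a4+/- cell, led by 2.13, and the next ones led by 5.68 and 5.74. Just outside, 3 P28 Slc26a4+/- cells had leads of 0.27, -0.0038 and -1.43, with low scores for every set.

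**Figure D1:**
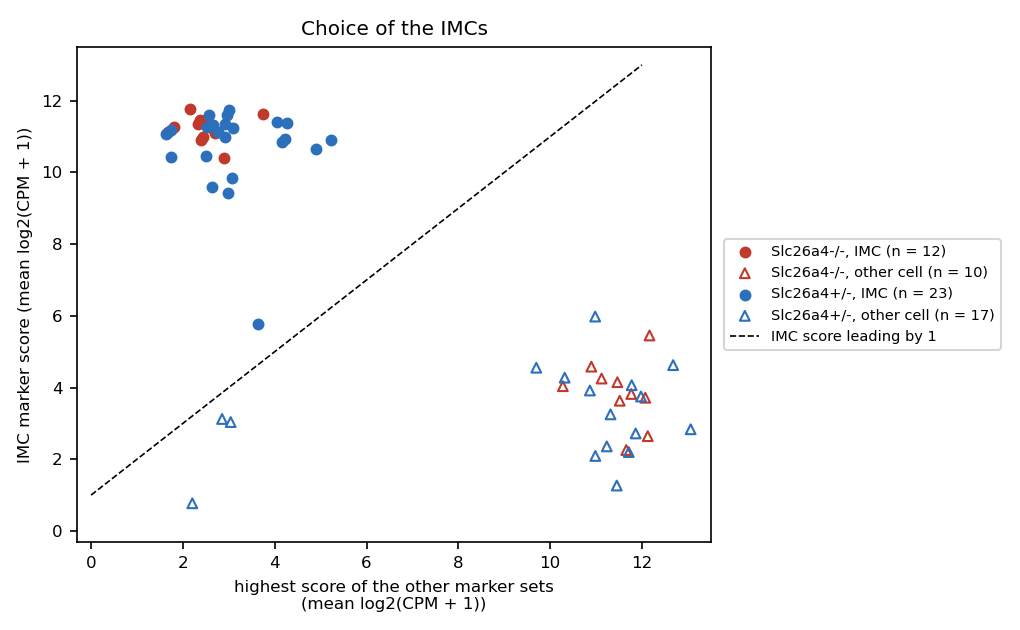
Choice of the IMCs. Each point is 1 Slc26a4-/- (red) or Slc26a4+/- (blue) cell of the run date, with its highest score among the 4 other marker sets on the x axis and its IMC score on the y axis (both mean log2(CPM + 1)). The 35 filled points above the dashed line are the cells compared, and 1 Slc26a4+/- cell with an IMC score of 5.77 lies apart from the other 34.

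Several abundant IMC genes that took no part in the choice had similar means in both genotypes. *Dct*, the melanin-synthesis enzyme dopachrome tautomerase, was at 46292 to 99856 CPM (median 76461) in Slc26a4-/- IMCs and at 22186 to 118466 CPM (median 69989) in Slc26a4+/- IMCs. These ranges overlapped almost entirely. The gap-junction gene *Gjb6* (connexin 30) had means of 3277 and 3747 CPM, and the sodium pump subunit gene *Atp1b3* had means of 3119 and 2806 CPM. *Ednrb*, the endothelin receptor required for melanocyte development, had means of 1595 and 1518 CPM. *Mitf* and *Kcnj13*, which belonged to the same check, differed more. Their log2 ratios of mean CPM + 1, Slc26a4-/- over Slc26a4+/-, were -0.67 and 0.46. *Tyrp1*, another melanin-synthesis gene, had counts in 2 of 12 and 1 of 23 cells, and 1 Slc26a4-/- cell held 99.8% of its Slc26a4-/- CPM.

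The genotype label could not be checked on *Slc26a4* RNA in these cells. It had at least 1 count in 8 of 12 Slc26a4-/- and 17 of 23 Slc26a4+/- IMCs, with means of 3.66 and 1.82 CPM and maxima of 21.2 and 18.9 CPM. In the 7 RC-scored cells labelled Slc26a4-/- of the run date, *Slc26a4* reads averaged 1898 CPM, so the transcript is still made and counted in cells with that label. Every direction below rests on the labels.

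Libraries of the genotypes differed in ways that can touch single-gene values. Total counts were 2010433 to 5111599 in the Slc26a4-/- IMCs (median 3940874) and 1004785 to 7932729 in the Slc26a4+/- IMCs (median 2443458). With every cell thinned to 1000000 counts, Slc26a4-/- IMCs still held more genes, 6503 to 8692 (median 7347) against 4052 to 7612 (median 6016). Mitochondrially encoded genes made up a median of 0.126% and 0.236% of the counts. Counts are of PCR-amplified reads without molecular identifiers, and CPM gives a gene's share of a cell's counts and not RNA per cell.

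**Figure D2:**
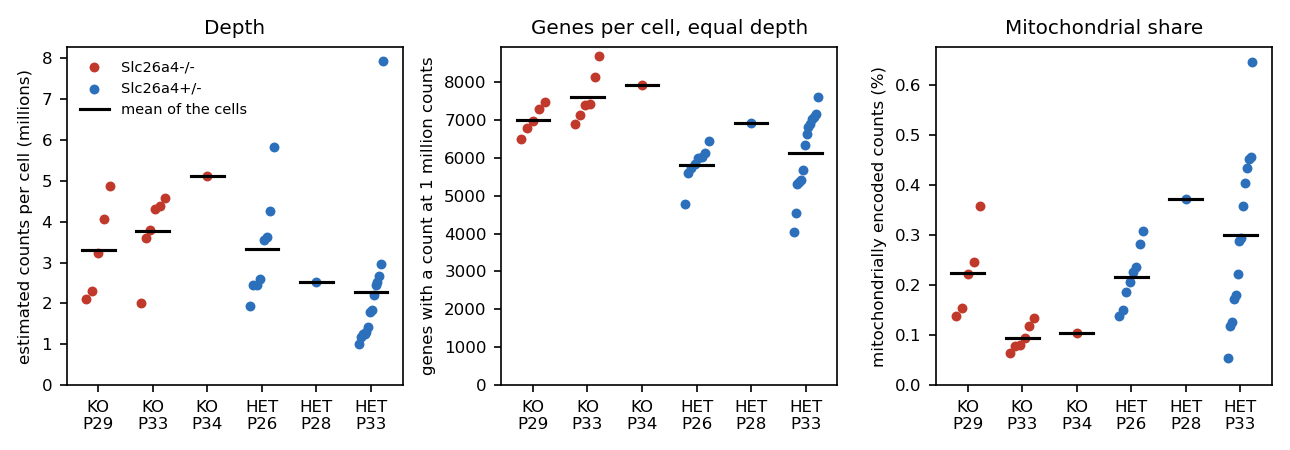
Library measures of the 35 IMCs. Each point is 1 cell, placed by genotype and age pool on the x axis, with total counts, genes detected and percent of counts from mitochondrially encoded genes on the y axes. The 6 Slc26a4-/- cells at P33 held the lowest mitochondrial shares as a pool, with a median of 0.087%.

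All but 6 cells of each genotype held over 50 CPM of at least 1 of the other marker sets of the choice. The highest sums were in Slc26a4+/- cells. The summed CPM of the 4 MC genes was 0.196 to 33.8 in Slc26a4-/- IMCs and 1.64 to 541 in Slc26a4+/- IMCs, with 0 of 12 and 10 of 23 cells over 50 CPM. For the 4 RC genes the sums reached 73.3 and 560 CPM, with 1 and 8 cells over 50 CPM. The SC genes passed 50 CPM in 5 and 6 cells and the unnamed set in 0 and 2 cells. Outside the SV epithelium, the 8 basal cell and fibrocyte genes passed 50 CPM in 4 and 8 cells, with *Otor* at 0 in the Slc26a4-/- cells. One Slc26a4-/- cell at P29 had 974 CPM of hair cell genes, of which the hair cell calcium-binding protein gene *Ocm* made up 798 CPM, with *Otof* at 0 in every cell. Hair cell genes also passed 50 CPM in 3 Slc26a4+/- cells. Of the 11 macrophage genes, *Csf1r*, *Adgre1*, *C1qa* and 4 others were at 0 in the Slc26a4-/- cells, yet the summed list passed 50 CPM in 3 of 12 of them (up to 92.5 CPM) and in 0 of 23 Slc26a4+/- cells. *Cd14*, a co-receptor for lipopolysaccharide, was the only measured gene of that list, with counts in 2 Slc26a4-/- cells and a log2 ratio of 3.87 that was -0.0107 without the Slc26a4-/- P33 pool. The Schwann and glial list passed 50 CPM in 12 of 12 and 21 of 23 cells, with *Mbp* at a log2 ratio of 1.49. Blood, endothelial and pericyte genes passed 50 CPM in 0 Slc26a4-/- cells and in 4, 1 and 1 Slc26a4+/- cells. Without every cell that passed 50 CPM for SC, RC, MC or the unnamed set, 6 cells of each genotype remained, and list medians from these cells are given beside each list. The part of such RNA in the differences below was not tested beyond that.

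Of 9213 genes with a mean of at least 10 CPM in a genotype, 1523 (16.5%) were at least 2-fold higher and 1578 (17.1%) at least 2-fold lower in Slc26a4-/- IMCs, on a ratio of mean CPM + 1. The median log2 ratio was -0.06. The balance depended on the averaging, with 47.5% higher and 3.14% lower by the difference of mean log2(CPM + 1), and it was 32.2% and 22.9% in the 6 and 6 cells without markers of other SV cells. The shares of 16.5% and 17.1% are the background for every list of this comparison below, and with 12 and 23 cells many such ratios come from a few cells. Every Slc26a4-/- age pool lay above every Slc26a4+/- age pool for 587 genes (6.37%) and below for 472 (5.12%). Both conditions held for 406 genes (4.41%) higher and for 3.28% lower in Slc26a4-/- IMCs. Pools are called apart where those of the genotypes do not overlap.

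No gene passed edgeR's test over pools, whereas DESeq2 made calls. Counts were summed for the 4 pools with at least 2 IMCs (Slc26a4-/- P29 and P33, Slc26a4+/- P26 and P33) and tested with edgeR's quasi-likelihood test, which found 0 of 11640 genes at a Benjamini-Hochberg adjusted p under 0.05. At an unadjusted p under 0.05 there were 665 genes, and DESeq2 on the same sums called 1.495% of the genes higher and 1.246% lower. The smallest edgeR p belonged to *Slc13a4* (log2 -7.30, p = 7.07e-06, adjusted p = 0.0823) and the next to *Alpl* (log2 -2.13, p = 0.000152, adjusted p = 0.733). Both were lower in the Slc26a4-/- pools.

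*Slc13a4*, which encodes a sodium-coupled sulfate transporter, had the widest difference among genes with a mean of at least 1000 CPM in a genotype. It was at 0 to 107.4 CPM (median 0.709) in Slc26a4-/- IMCs and at 0.857 to 4684 CPM (median 1157) in Slc26a4+/- IMCs. The pool means were 8.33, 18.9994 and 0.587 CPM at P29, P33 and P34 in Slc26a4-/- mice and 1081, 483 and 1566 CPM at P26, P28 and P33 in Slc26a4+/- mice. No pool overlapped, and the log2 ratio was -6.59 with all cells and -6.15 without the cells that held markers of other SV cells. Wild-type IMCs of the same run date had a mean of 891 CPM, near the heterozygous level. The gene lies on chromosome 6, minus strand, from 35267957 to 35308131 (GRCm38).

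*Serinc3*, which encodes a multipass membrane protein of the serine incorporator family, was lower as well. It was at 1.43 to 58.2 CPM (median 5.796) in Slc26a4-/- IMCs and at 0.455 to 792 CPM (median 273.6) in Slc26a4+/- IMCs. The highest Slc26a4-/- cell lay below the heterozygous median, and pool means were 3.91 to 23.02 CPM against 269.4 to 542 CPM. The log2 ratio was -4.48, and wild-type IMCs of the run date averaged 574 CPM. *Serinc3* lies on chromosome 2, minus strand, from 163623272 to 163645131. It was singled out after its values were seen.

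*Ucp2*, the gene of a mitochondrial inner-membrane carrier that limits reactive oxygen production, was also lower, and it too was singled out after its values were seen. It was at 0.464 to 190 CPM (median 72.1) in Slc26a4-/- IMCs against 0 to 1114.8 CPM (median 297.6) in Slc26a4+/- IMCs. Single cells overlapped while pool means did not, at 40.1 to 109.4 CPM against 347 to 450 CPM. The log2 ratio was -2.52, and -1.15 in the 6 and 6 cells without markers of other SV cells.

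The 8 genes that the study named as changed in IMCs were chosen by its authors on cells that include these, so their directions here are no independent evidence. Of the 8, 3 were at least 2-fold higher, 4 at least 2-fold lower, and 1 was under 2-fold, and all 7 past 2-fold had pools apart. The genes that were higher were *Syt4*, *Cav1* and *Aebp1*. The genes that were lower were *Alpl*, *Fbln2*, *Thrsp* and *Cttnbp2*.

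*Syt4*, which encodes synaptotagmin 4, a vesicle-trafficking protein, was at 1251 to 3745 CPM (median 2415) in Slc26a4-/- IMCs. In Slc26a4+/- IMCs it was at 0 to 1997 CPM (median 449). Every Slc26a4-/- cell therefore exceeded the heterozygous median, and the log2 ratio of means was 2.22. *Cav1* encodes caveolin 1, the coat protein of caveolae, and was at 630 to 1738 CPM (median 881) against 0 to 891 CPM (median 215.7), with a log2 ratio of 1.85. *Aebp1*, which encodes a secreted collagen-binding protein, was at 504 to 2961 CPM (median 1852) against 23.1 to 1499 CPM (median 586), a log2 ratio of 1.27. Wild-type IMCs of the run date averaged 174.6, 225.9 and 425 CPM for these genes, below the heterozygous means of 539, 275.6 and 727 CPM.

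*Alpl* encodes tissue-nonspecific alkaline phosphatase and lies on chromosome 4, minus strand, from 137741733 to 137796384. It was at 2.79 to 1203 CPM (median 472) in Slc26a4-/- IMCs and at 108.98 to 4584 CPM (median 1857) in Slc26a4+/- IMCs. Every Slc26a4-/- cell lay below the heterozygous median, and the pool means were 65.9 to 595 CPM against 1983 to 2371 CPM. The log2 ratio was -2.12, and the wild-type mean of 1953 CPM sat beside the heterozygous mean of 2059 CPM.

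*Thrsp*, a thyroid-hormone-responsive gene of lipid synthesis, averaged 92.9 and 512 CPM (log2 -2.45). *Fbln2*, which encodes the matrix glycoprotein fibulin 2, averaged 47.9 and 314.2 CPM (log2 -2.69), but 1 Slc26a4-/- cell held 53.05% of the Slc26a4-/- CPM. *Cttnbp2*, which encodes a cortactin-binding protein, averaged 104.5 and 260 CPM (log2 -1.31). The complement component gene *C4b* averaged 77.5 and 141.7 CPM, a log2 ratio of -0.86 that fell short of 2-fold, with pools that overlapped.

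**Figure D3:**
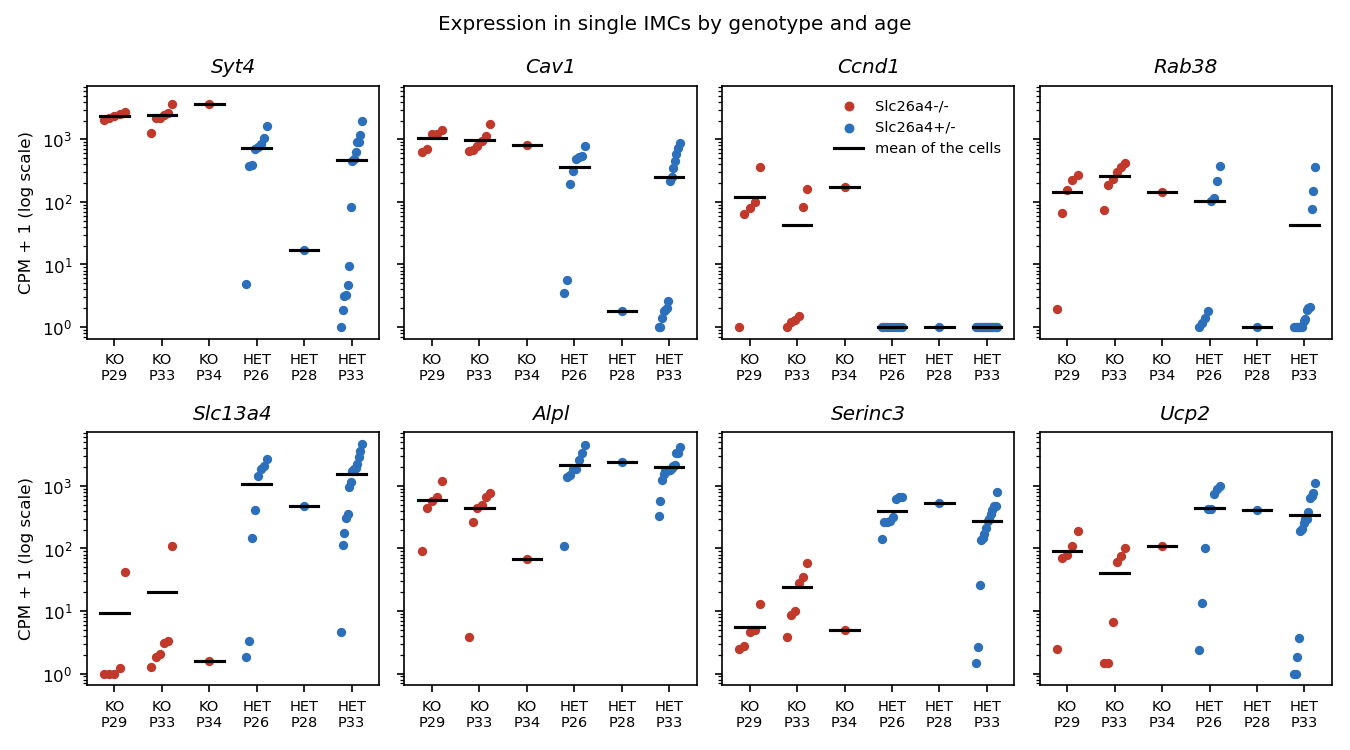
CPM of named genes in single IMCs. Each point is 1 cell on a log axis of CPM + 1, with Slc26a4-/- and Slc26a4+/- cells placed by genotype and age pool and bars at the pool means. Slc13a4, Alpl, Serinc3 and Ucp2 have lower means in the Slc26a4-/- cells, and Syt4, Cav1, Ccnd1 and Rab38 have higher means.

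The 4 genes of the IMC score are given as a description, since they chose the cells. *Kcnj10* was at 1116 to 4092 CPM (mean 2774) and 14.7 to 5652 CPM (mean 2721), and *Met*, the hepatocyte growth factor receptor, averaged 1861 and 1974 CPM. *Dkk3*, a secreted Dickkopf-family protein, averaged 3785 and 4703 CPM. *Nrp2*, a neuropilin co-receptor for semaphorins and VEGF, averaged 2087 and 1042 CPM, with pools apart.

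Pigment genes and potassium-handling genes stayed near the all-gene median. Of 18 measured pigment and melanosome genes, 1 was at least 2-fold higher and 1 lower, and their median log2 ratio was 0.11. The highest was *Rab38*, a GTPase that carries melanogenic enzymes to melanosomes, at 0.953 to 420 CPM (median 203.4) in Slc26a4-/- IMCs and 0 to 381 CPM (median 0.410) in Slc26a4+/- IMCs. Its pools were apart and its log2 ratio was 1.70. *Slc7a11*, the cystine-glutamate exchanger, was lower at 3.23 and 10.4 CPM, both low levels. *Mitf*, the melanocyte master transcription factor, averaged 472 and 752 CPM, a log2 ratio of -0.67 with pools apart. In the 6 and 6 cells without markers of other SV cells the pigment median was -0.11, beside 0.15 for all genes.

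Of 12 potassium and gap-junction genes, 1 was higher and 3 lower, with a median of 0.07 there and in the 6 and 6 cells alike. *Kcnj10*, *Kcnq1* and *Fxyd6* of this list took part in the choice of cells, so their part in these counts and medians is no result. *Atp1b2*, a sodium pump subunit gene, was at 13.9 to 297.97 CPM (median 103.9) in Slc26a4-/- IMCs and 0.552 to 213.8 CPM (median 3.27) in Slc26a4+/- IMCs, with pools apart (log2 1.83). *Fxyd1*, the sodium pump regulator phospholemman, averaged 84.5 and 183.5 CPM (log2 -1.11), with -0.33 in the cells without markers of other SV cells. *Kcnq1* and *Fxyd6*, the other members that were lower, belong to the MC and RC marker sets, and 57.9% and 72.1% of their Slc26a4+/- CPM came from 1 cell each. Their log2 ratios of -2.64 and -2.50 became 0.82 and 0.18 without cells that held markers of other SV cells. Both genes count toward the limit that removed those cells, so this change follows in part from the removal. *Kcnj13*, the inward rectifier Kir7.1, averaged 1082 and 788 CPM (log2 0.46).

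Of 13 measured pH regulators, 3 were at least 2-fold higher, 3 lower, and the median was -0.23. The higher members had pools apart. *Car8*, a carbonic anhydrase-related protein without catalytic activity, was at 3.06 to 715 CPM (median 276.4) against 0.409 to 647 CPM (median 74.02), a log2 ratio of 1.61. *Slc4a2*, the anion exchanger AE2, averaged 210 and 84.9 CPM (log2 1.29). Its medians differed more, at 149.4 and 8.06 CPM. The lower members were *Slc16a3* (a lactate transporter, 0.978 and 46.9 CPM), *Slc4a11* (a bicarbonate-transporter family member, 0.0182 and 10.01 CPM) and *Car12* (an extracellular carbonic anhydrase, 18.9 and 43.9 CPM), with pools that overlapped. For *Slc4a11*, 1 Slc26a4+/- cell held 99.4% of the CPM. The list's median was 0.04 at P33 alone and 0.46 without cells that held markers of other SV cells.

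Of 17 measured V-ATPase subunit genes, 1 was at least 2-fold higher and 0 were lower, with a median of 0.09 (-0.12 in the 6 and 6 cells). Pools lay above for 5 of them, where 6.37% of all genes had pools above. *Atp6v1b2*, the catalytic-head subunit B2, was at 118.4 to 1126 CPM (median 373) against 0 to 569 CPM (median 25.4), with pools apart and a log2 ratio of 1.88. *Atp6v0c*, the proton-conducting ring subunit, averaged 1060 and 709 CPM (log2 0.58) and its pools were also apart. The other members with pools above were *Atp6v1e1* (log2 0.99), *Atp6v0a1* (0.65) and *Atp6ap1* (0.47), each under 2-fold.

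Mitochondrially encoded RNA and genes of glycolysis and hypoxia lay below the all-gene median. Of 12 mitochondrial genes, 4 were at least 2-fold lower, 0 higher, and the median was -0.82. *mt-Co1*, a cytochrome oxidase subunit gene, was at 275.1 to 987 CPM (median 483) in Slc26a4-/- IMCs and 99.3 to 2124 CPM (median 1216) in Slc26a4+/- IMCs, with pools apart and a log2 ratio of -0.97. *mt-Nd5*, of complex I, averaged 95.5 and 245.2 CPM (log2 -1.35, pools apart), and *mt-Co2*, *mt-Atp6* and *mt-Nd6* were lower with overlapping pools. The summed CPM of the list had medians of 874 at P33 and 2217 at P29 in Slc26a4-/- IMCs, against 2910 at P33 and 2152 at P26 in Slc26a4+/- IMCs. The single cells at P34 (Slc26a4-/-) and P28 (Slc26a4+/-) had sums of 1041 and 3719 CPM. The P29 and P26 pools thus had similar sums, and the other pools of the genotypes lay further apart. In the 6 and 6 cells without markers of other SV cells the list's median was 0.35.

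Of 18 glycolysis and hypoxia genes, 4 were at least 2-fold lower and 0 higher, with a median of -0.55 (-0.20 in the 6 and 6 cells). *Bnip3*, a hypoxia-induced mitophagy receptor, was at 0 to 33.8 CPM in Slc26a4-/- IMCs, where 4 of 12 cells held a count, and at 0 to 292.4 CPM in Slc26a4+/- IMCs, where 20 of 23 did. Its pools were apart, and its log2 ratio of -3.44 became -1.44 without cells that held markers of other SV cells. *Aldoa*, the glycolytic aldolase, averaged 2390 and 3790 CPM (log2 -0.67, pools apart). *Slc2a1* (the glucose transporter GLUT1), *Ndrg1* and *Pdk1* were lower with overlapping pools, and 1 cell held 60.1%, 65.5% and 49.2% of their Slc26a4+/- CPM.

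Of 23 oxidative stress genes, 6 were at least 2-fold higher and 2 lower, with a median of -0.16 (-0.03 in the 6 and 6 cells). The members with pools apart included *Gstp1*, a glutathione transferase (694 and 334 CPM, log2 1.05), *Sod3*, the extracellular superoxide dismutase (182.8 and 77.4 CPM, log2 1.23), and *Gpx3*, the secreted glutathione peroxidase (93.8 and 24.8 CPM, log2 1.88). *Sod3* was at 52.4 to 260.7 CPM (median 175.8) in Slc26a4-/- IMCs and 0 to 436 CPM (median 0.846) in Slc26a4+/- IMCs. Thus every Slc26a4-/- cell held it and 5 of 23 Slc26a4+/- cells did not. *Nqo1*, a quinone reductase, had counts in 6 of 12 Slc26a4-/- cells and in 0 of 23 Slc26a4+/- cells, which allows up to 13.04% of cells with a count, for counting error alone. The lower members were *Gstm1* (40.4 and 118.5 CPM) and *Hmox1*, heme oxygenase 1 (22.3 and 53.03 CPM).

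Immediate early and heat shock genes leaned upward, in part through single cells. Of 16 measured, 6 were at least 2-fold higher and 0 lower, with a median of 0.29. In the 6 and 6 cells without markers of other SV cells it was 2.71, beside 0.15 for all genes. *Klf6*, an early response transcription factor, was at 29.7 to 710 CPM (median 338) against 0 to 535 CPM (median 38.7), with overlapping pools and a log2 ratio of 1.35. *Junb* averaged 54.8 and 19.5 CPM. *Ier3* had counts in 8 of 12 and 0 of 23 cells and a mean of 17.8 CPM in Slc26a4-/- IMCs. For *Fos*, 1 Slc26a4-/- cell held 97.4% of the Slc26a4-/- CPM of 257.9, and *Hspa1a* and *Socs3* had counts in 2 Slc26a4-/- cells each.

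Of 15 complement, interferon and MHC genes, 1 was at least 2-fold higher and 4 lower, with a median of -0.33 (-0.36 in the 6 and 6 cells). *Tap1*, the antigen-peptide transporter, averaged 77.02 and 10.4 CPM with pools apart (log2 2.78), while 1 Slc26a4+/- cell held 91.4% of the heterozygous CPM. *H2-D1*, a classical class I gene, was at 4.73 to 64.2 CPM (median 28.5) against 0.470 to 487 CPM (median 40.0), with a log2 ratio of -1.99. The interferon-induced genes *Ifit3* (446 and 1610 CPM) and *Ifit1* (166.3 and 353 CPM) were lower in mean, but 1 Slc26a4+/- cell held 48.3% and 59.5% of the heterozygous CPM. *Psmb8*, an immunoproteasome subunit, had counts in 1 of 12 and 5 of 23 cells.

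Of 23 sterol and fatty acid synthesis genes, 5 were higher and 3 lower, with a median of 0.30. *Hmgcs1* and *Fdft1*, enzymes of the mevalonate and squalene steps, averaged 151.4 and 68.5 CPM and 171.02 and 76.98 CPM, with pools apart. *Fasn*, the fatty acid synthase, averaged 130 and 42.3 CPM, also with pools apart (log2 1.60), but its log2 ratio was -0.19 with TPM per gene. *Dhcr7* and *Mvd* were higher with overlapping pools. The lower members were *Lss* (18.7 and 64.4 CPM), *Insig1* (35.5 and 81.9 CPM) and *Thrsp*. The list's median was -0.31 in the cells without markers of other SV cells.

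Among 14 extracellular matrix genes, 4 were higher and 1 (*Fbln2*) lower, with a median of 0.15 (0.23 in the 6 and 6 cells). Pools lay above for 2 of them, *Aebp1* and *Postn*, the gene of the matricellular protein periostin. Pools lay below for 4, *Fbln2* and, under 2-fold, *Sparc*, *Lamc1* and *Timp3*. Of all genes, 6.37% had pools above and 5.12% had pools below. *Postn* had counts in 6 of 12 Slc26a4-/- and 1 of 23 Slc26a4+/- cells, with means of 19.3 and 0.0102 CPM. *Col1a1* rested on 1 Slc26a4-/- cell with 98.3% of the CPM, and *Mgp* had overlapping pools. *Sparcl1*, the most abundant member, averaged 3536 and 3315 CPM.

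Annexin and clathrin-adaptor genes were examined because the study stained for their proteins in the SV. Of 7 measured annexin genes, 2 were at least 2-fold higher, among them *Anxa1* of the choice of cells, and 0 lower. The median was 0.10 (-0.10 in the 6 and 6 cells). *Anxa2*, a calcium-dependent membrane-binding protein, was at 1.58 to 598 CPM (median 291.5) against 0.756 to 517 CPM (median 14.5), with pools apart and a log2 ratio of 1.09. *Anxa1*, an SC marker of the choice and so no result, averaged 34.6 and 8.48 CPM, with pools apart (log2 1.91). Wild-type IMCs of the run date averaged 3.45 CPM. In another run date, *Anxa1* averaged 20.6 CPM in Slc26a4-/- and 7.07 CPM in wild-type IMCs (log2 1.42). Without cells that held markers of other SV cells the main log2 ratio was -0.10. *Anxa1* itself counts toward the limit that removed those cells, so that value follows in part from the removal. Of 11 AP-2 and clathrin genes, 0 were higher and 1 was lower, with a median of -0.17 (-0.63 in the 6 and 6 cells). That gene was *Picalm*, a clathrin assembly protein, at 0 to 2.77 CPM in Slc26a4-/- IMCs and 0 to 158.4 CPM in Slc26a4+/- IMCs (means 1.06 and 18.2 CPM, pools apart). *Ap2m1*, the cargo-binding subunit of AP-2, averaged 350 and 394 CPM.

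Of 7 measured genes of thyroid hormone transport and response, 1 was higher and 3 were lower, with a median of -0.93. That median was -0.10 in the 6 and 6 cells and -0.17 at P33 alone. Pools were apart for *Thrsp* and for *Klf9*, a thyroid-hormone-induced transcription factor at 132.9 and 254.6 CPM (log2 -0.93). The corepressor gene *Hr* and *Bcl3* averaged under 20 CPM in each genotype and had overlapping pools. Of 11 ligand and receptor genes of IMC signalling, 3 were higher (*Nrp2*, *Nrp1* and *Kitl*) and 0 lower, with a median of 0.07 (0.23 in the 6 and 6 cells). *Met*, *Dkk3* and *Nrp2* of this list took part in the choice of cells, so *Nrp2* is no result. The log2 ratio of *Nrp1* (24.03 and 10.9 CPM) turned to -3.23 without the Slc26a4-/- P33 pool. *Kitl*, the ligand of the melanocyte receptor Kit, averaged 16.1 and 3.99 CPM, and 1 Slc26a4+/- cell held 97.3% of the heterozygous CPM. Wild-type IMCs of the run date averaged 48.3 CPM of *Kitl*, above both genotypes.

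**Figure D4:**
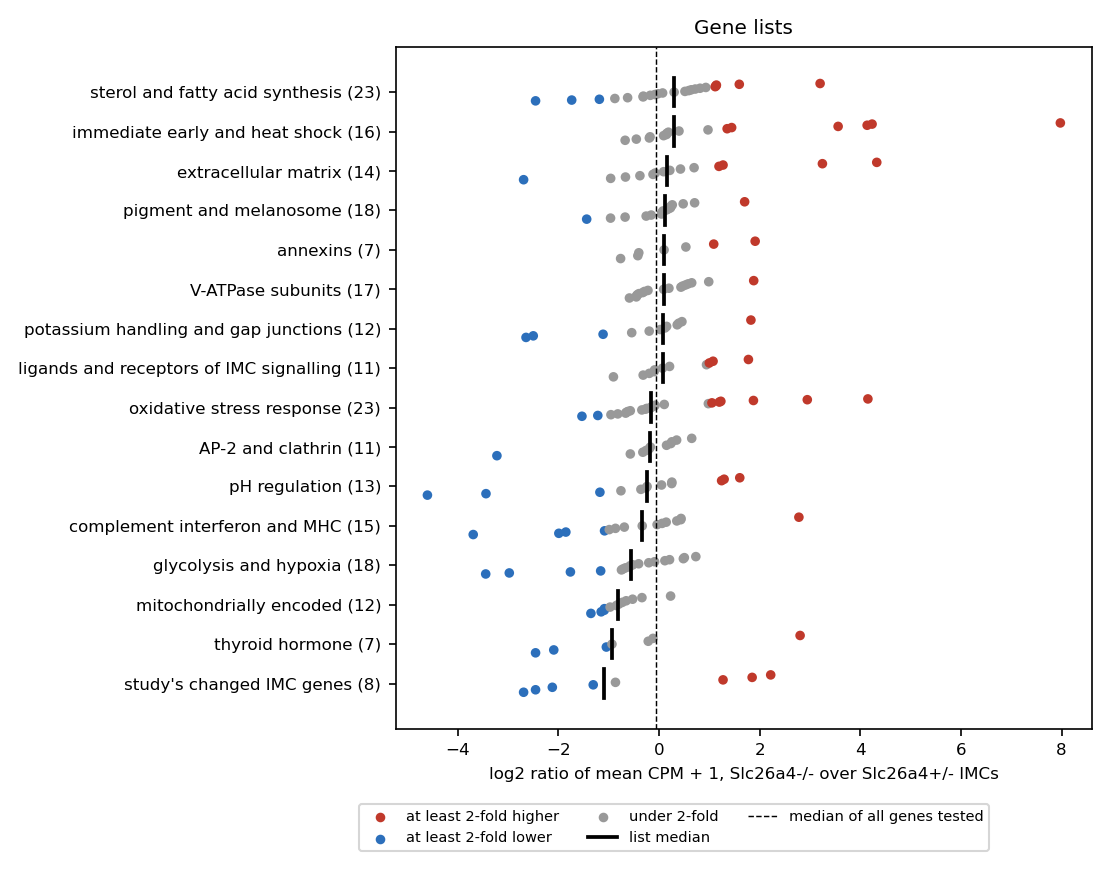
Log2 ratios of gene lists. Each row is a list with its number of measured genes, each point is a gene placed by its log2 ratio of mean CPM + 1 (Slc26a4-/- over Slc26a4+/- IMCs), red or blue where at least 2-fold, with a bar at the list median and a dashed line at the all-gene median of -0.06. Mitochondrially encoded genes have a median of -0.82 and no point beyond 2-fold on the higher side.

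A list's standing against all genes depended on how cells were averaged. With the difference of mean log2(CPM + 1), which averages the cells on the log scale, the all-gene median was 0.94. Against that value, the mitochondrial (-0.33), glycolysis (-0.18), pH (-0.28), oxidative stress (0.36) and thyroid (0.15) medians lay below, and the sterol (1.95), signalling (1.43) and immediate early (1.25) medians lay above. The pigment (0.35), potassium (0.30) and V-ATPase (0.56) medians also lay below and the AP-2 median (1.5) above, each on the other side from that of the ratio of means.

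The genes with the widest gap between pools were at or near 0 in most cells of one genotype. Upward, the gap led with *Ccnd1*, the G1 cyclin D1, which was at 0 to 362 CPM (median 71.7) in Slc26a4-/- IMCs with counts in 10 of 12 cells. Some of these held under 1 CPM: at P33 the Slc26a4-/- cells were at 0, 0.218, 0.277, 0.525, 83.1 and 162.7 CPM of *Ccnd1*. It had 0 counts in all 23 Slc26a4+/- IMCs, which makes the mean at least 1733-fold higher when 3 counts summed over these cells are taken as the lowest level (0.0492 CPM). *St8sia6*, a sialyltransferase gene, followed with a mean of 57.7 CPM in 9 of 12 cells against 0 of 23 cells, at least 1173-fold higher. Wild-type IMCs of the run date averaged 10.1 and 24.8 CPM for these, between the genotypes.

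The other 8 genes with the widest upward gaps were *Atg12*, *Slc35c1*, *Slc52a2*, *Hgh1*, *Pcna*, *E2f5*, *Gbp9* and *Smad3*. Their means lay between 20.4 and 43.02 CPM in Slc26a4-/- IMCs and between 0.0443 and 0.325 CPM in Slc26a4+/- IMCs. For 5 of them the wild-type mean lay above the Slc26a4-/- mean: *Atg12* (an autophagy conjugation protein, 58.9 CPM), *Pcna* (the DNA polymerase clamp, 31.6 CPM), *E2f5* (44.5 CPM), *Slc52a2* (a riboflavin transporter, 51.6 CPM) and *Smad3* (the TGF-beta signal transducer, 75.2 CPM). For these 5 the heterozygous mean was thus the lowest, with a wild-type mean from only 7 cells. *Hgh1*, *Slc35c1* and *Gbp9* were at 0.734, 6.36 and 6.52 CPM in wild-type IMCs.

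Downward, the widest gaps were those of *Krt79*, *Gas6*, *Tmem121*, *Slc13a4*, *Vasn*, *Aldh4a1*, *Nin*, *Tbc1d8b*, *R3hcc1* and *Tpm3-rs7*. *Gas6*, the ligand of the TAM receptor kinases, was at 0 to 1.49 CPM in Slc26a4-/- IMCs and 0 to 372 CPM (median 1.53) in Slc26a4+/- IMCs, with means of 0.300 and 73.6 CPM. Its wild-type mean was 171.1 CPM, so that the Slc26a4-/- mean was the lowest. *Aldh4a1*, the proline-catabolism dehydrogenase, averaged 0.444, 58.7 and 86.6 CPM in Slc26a4-/-, Slc26a4+/- and wild-type IMCs. *Vasn* averaged 0.0163, 39.8 and 73.5 CPM, *R3hcc1* 0.529, 37.6 and 47.9 CPM, and *Tpm3-rs7*, by its name a related sequence of *Tpm3* that may share its reads, 0.791, 36.4 and 68.4 CPM. *Krt79* (0, 57.6 and 0.0733 CPM), *Tbc1d8b* (0, 20.5 and 0 CPM) and *Nin* (0.323, 28.5 and 0 CPM) were at or near 0 in wild-type IMCs as well. Only their heterozygous means were above that level. *Tmem121* averaged 0.0231, 45.9 and 21.1 CPM, and *Tmem121*, *Vasn* and *Tbc1d8b* had log2 ratios of 0.07, 0.00 and -0.07 without cells that held markers of other SV cells.

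The loss of *Slc26a4* was also compared in cells of another run date, which held 27 Slc26a4-/- and 15 wild-type IMCs and no heterozygous cells. Here the control genotype, the ages (P24 to P44 and P23 to P42) and the depth differed (median total counts 655962 and 1270907), so values stand side by side. Among the 8299 genes measured in both run dates, 26.5% were at least 2-fold higher in these Slc26a4-/- IMCs and 21.3% lower. Of the 354 genes that were 2-fold higher with pools apart in the heterozygous comparison, 43.8% were also 2-fold higher here and 54 (15.3%) were 2-fold lower. Genes 2-fold higher on both counts were thus 1.87% of the 8299. Of those that were 2-fold lower with pools apart, 97 (36.5%) were also lower and 52 (19.5%) were higher. Genes 2-fold lower on both counts were 1.17% of the 8299.

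The study's genes kept their sides in the other run date. *Syt4* averaged 893 and 113.6 CPM in Slc26a4-/- and wild-type IMCs (log2 2.96), *Cav1* 439 and 107.2 CPM (2.02), and *Aebp1* 2738 and 1578 CPM (0.79). *Alpl* averaged 226.4 and 1143 CPM (log2 -2.33), *Thrsp* 48.6 and 693 CPM (-3.81), *Fbln2* 50.7 and 384 CPM (-2.90), *Cttnbp2* 211.7 and 414 CPM (-0.96) and *C4b* 77.1 and 580 CPM (-2.90). The study's own comparison also took in these cells. *Serinc3* averaged 20.9 and 369 CPM (log2 -4.08) and *Ucp2* 169.2 and 1114.7 CPM (-2.71), close to their ratios against heterozygous cells. Both were named because they were lower in both run dates, so this closeness follows from the choice and is no repeat. *Slc13a4* was less far apart here, at 354 and 914 CPM (-1.37).

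The genes below were named for their direction in both run dates, by their level or their smaller ratio, after the values were seen. Among the abundant ones on the higher side were *Cryab*, the small heat shock protein alpha-B crystallin (1214 and 560 CPM, log2 1.11, and 1001 and 63.8 CPM, log2 3.95 in the other run date), and *Serpinh1*, the collagen chaperone HSP47 (741 and 284.003 CPM, log2 1.38, then 2.73). *Vim*, the intermediate filament vimentin (456 and 111.6 CPM), had log2 ratios of 2.02 and 2.75, and *Adamts1*, a secreted metalloprotease (410 and 90.6 CPM), of 2.17 and 4.43. *Snx1*, a sorting nexin (861 and 311 CPM), had 1.47 and 2.59, *Kcnn4*, a calcium-activated potassium channel (974 and 471 CPM), 1.05 and 1.43, and *Tes*, a focal-adhesion protein (958 and 420 CPM), 1.19 and 1.27. *Rab38* and *Atp6v1b2* were on the same side in both, with 5.89 and 1.72 in the other run date.

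Among scarcer genes, *Ccnd1* averaged 103.2 and 0.132 CPM and *St8sia6* 52.4 and 0.113 CPM in Slc26a4-/- and wild-type IMCs of the other run date. *Gbp10*, an interferon-inducible GTPase (87.7 and 1.84 CPM, log2 4.96), and *Zfp59*, a zinc finger gene (36.8 and 0.212 CPM, log2 4.96), reached 5.37 and 7.38 there. *Postn* reached 6.13. Members of the Gbp family are near-identical in stretches, so reads can be split among them. The wild-type means of *Gbp10* and *Zfp59* in the main run date were 0.379 and 21.2 CPM.

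On the lower side, *Fxyd3*, a sodium pump regulator (53.98 and 292.02 CPM), had log2 ratios of -2.41 and -3.12 in the main and the other run date. *Rasl12*, a Ras-like GTPase (136.7 and 416 CPM), had -1.60 and -2.35, and *Vps39*, a lysosome-tethering subunit (92.2 and 260 CPM), -1.48 and -3.10. *Tns1*, the focal-adhesion protein tensin 1 (105.8 and 297.5 CPM), had -1.48 and -1.11, and *Spint2*, a serine protease inhibitor (99.3 and 219.4 CPM), -1.14 and -1.01. *Ndrg2* (48.7 and 220 CPM) had -2.15 and -2.42, and *Bnip3* -3.44 and -4.15. *Chil1*, a chitinase-like secreted protein, and *Ptgis*, prostacyclin synthase, had counts in 0 and 1 of 12 Slc26a4-/- cells and averaged 13.3 and 18.6 CPM in Slc26a4+/- IMCs. In the other run date they averaged 0 and 0.0175 CPM in Slc26a4-/- and 110 and 64.7 CPM in wild-type IMCs. Wild-type IMCs of the main run date averaged 0.078 CPM for *Chil1*, so that the heterozygous mean was the highest in that run date, and 91.2 CPM for *Ptgis*.

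For some genes the ratios to the 2 control genotypes differed. *Slc39a13*, the zinc transporter ZIP13, was at 0 to 110.7 CPM (median 4.18) against 0.378 to 1005 CPM (median 201.01) with pools apart (log2 -2.997), yet averaged 74.1 and 12.6 CPM in the other run date (2.47). *Ceacam1*, a cell adhesion molecule (1078 and 454 CPM, log2 1.25), had 0.27 there, and *Plekhb1* (789 and 1913 CPM, log2 -1.28) had 0.04. *Ifi27l2a*, an interferon-inducible gene (123.2 and 457 CPM, log2 -1.88), had -0.77. These and *Fads3*, a fatty acid desaturase-family gene (0.211 and 121.2 CPM), were among the smallest p of edgeR's test and did not pass it.

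By list, the other run date gave the following, where 26.5% of the 8299 genes measured in both run dates were at least 2-fold higher and 21.3% lower. Of the mitochondrially encoded genes, 6 of 12 were at least 2-fold lower and 0 higher, with a median of -0.97. Sterol and fatty acid genes had 11 of 22 higher and 2 lower, with a median of 1.02, and oxidative stress genes 8 of 22 higher and 2 lower (0.23). Glycolysis genes had 2 higher and 1 lower of 18 (-0.28), and pigment genes 1 higher and 1 lower of 18 (-0.10). The all-gene median was 0.07. Potassium genes had 2 higher and 0 lower of 12 (0.03), and V-ATPase genes 2 higher and 0 lower of 17 (0.12). The higher potassium genes were *Kcnq1* and *Fxyd6*, which took part in the choice of cells.

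**Figure D5:**
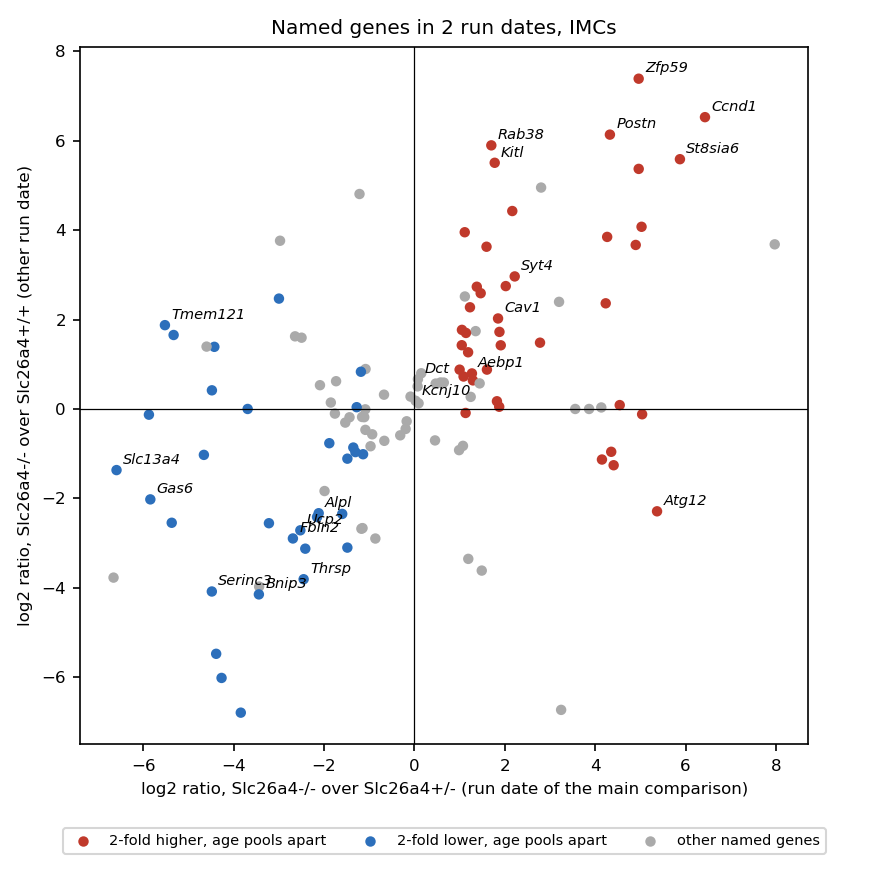
Named genes in both run dates. Each point is a gene, with the log2 ratio of Slc26a4-/- over Slc26a4+/- IMCs on the x axis and that of Slc26a4-/- over wild-type IMCs of the other run date on the y axis, coloured where the gene is at least 2-fold with pools apart on the x axis. Genes were in part named for their direction on both axes, so the shape of the cloud is no result. Slc13a4 sits at -6.59 and -1.37 and Atg12 at 5.37 and -2.29.

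Position in the genome was examined because the targeted locus and its linked segment can differ between mice of different genotype. On chromosome 12, which carries *Slc26a4*, 26 of 304 measured genes (8.55%) were at least 2-fold different with pools apart. Over the 19 autosomes and the X chromosome this share ran from 5.03% to 10.2%, so chromosome 12 as a whole lay within the range of the others. A share over the whole chromosome cannot show a short segment around *Slc26a4*, and no share is given for genes near the locus.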

How the data were processed

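The study's Smart-Seq2 libraries were pseudo-aligned by the authors to the GRCm38 transcriptome with kallisto. Per cell the authors deposited estimated counts and TPM per transcript, and for the series a table of estimated counts per gene (47752 genes, of which 281 SV cells were used and 17 other columns were not). A median of 97.7% of a cell's genes with a count equalled the sum of its transcripts' counts cut to whole numbers. The annotation release used by the authors is not given in the sources used here, and gene positions are from GENCODE M21 (GRCm38). Members and gene lists were chosen with earlier results of these data known.

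Ratios were taken of mean CPM + 1, for genes with at least 10 CPM in the higher genotype, and 2-fold was the limit. Named genes were the score's markers, *Slc26a4*, the study's 8 genes, the 10 widest pool gaps each way (at least 20 CPM), edgeR calls and up to 4 abundant members per list. Further genes were singled out after their values were seen: list members past 2-fold, V-ATPase genes with pools above, genes 2-fold in both run dates, and the smallest edgeR p. Counts were rounded, summed per pool and tested with edgeR 4.0.16 (TMM, filterByExpr, quasi-likelihood, Benjamini-Hochberg) in R 4.3.3, with 2 residual degrees of freedom. The test was checked on simulated counts. DESeq2 1.42.0, TMM factors, TPM summed per gene, other pseudocounts, filters, score margins, thinning, P33 alone and leaving out each pool were tried. No doublet caller was run, since cells were picked singly. All 35 cells passed the study's stated quality range (2500 genes, 3% mitochondrial). The highest correlation between cells was 0.798, so no pair of cells looked like 1 library. A few genes are not reported here.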

Additional observations from a re-analysis of the deposited data

How the results depend on the processing

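With 12 and 23 cells, each genotype was 1 sample, and the ratios have no test over mice. No paired analysis was possible, because the number in a label is a serial number of the cell and the genotypes share no opening number. Percents are of the genes measured under each setting. Genes at least 2-fold higher made up 10.8% with 10 CPM as the pseudocount, 11.2% at a mean of at least 50 CPM, 47.5% with the difference of mean log2(CPM + 1), and 32.2% without cells over 50 CPM of other SV markers. Genes at least 2-fold lower made up 11.2%, 12.6% and 3.14% under the first 3 of these settings in turn, and 14.98% without a filter. Pools lay above for 19.2% and below for 18.7% of genes with only pools of at least 2 cells. Without cells over 50 CPM of other SV markers these shares were 21.9% and 13.1%, and without cells over 50 CPM of blood, macrophage, vessel or hair cell markers they were 20.4% and 17.3%. Pools lay above for 7.69% at a mean of at least 50 CPM. Pools lay below for 2.49% with pools formed by opening number and age, and for 4.38% without a filter. Leaving out 1 pool at a time gave 16.6% to 23.6% higher, 17.4% to 24.2% lower, pools above for 9.42% to 13.75%, and pools below for 7.52% to 13.46%, with fewer pools to keep apart. Adjusted p under 0.05 was reached by 1.495% (up) and 1.246% (down) of genes with DESeq2. With edgeR it was reached by 0.0122% (*Fos*, *Syt4*) and 0.02435% (*Slc13a4*, *Alpl*, *Fads3*, *Serinc3*) without a filter, by 0% and 0.00851% (*Slc13a4*) with pools by opening number, and by 0% when a pool was left out.

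Of the genes given with values and past 2-fold, 89 (82.4%) had the same direction under every setting run. Of 2540 values of the genes given under another setting, 9.92% moved by more than 1 SD of the age pools and 22 others changed sign. Without cells over 50 CPM of other SV markers, log2 ratios with the other sign were 0.0651 for *Tmem121*, -0.10 for *Anxa1*, 0.18 for *Fxyd6*, 0.82 for *Kcnq1*, 0.11 for *mt-Atp6*, 0.0515 for *Slc4a11*, 0.42 for *Ifit1*, 0.29 for *mt-Nd6* and 0.0726 for *mt-Co2*. Of these, *Anxa1*, *Fxyd6* and *Kcnq1* are themselves markers that removed cells, so their change follows in part from the removal. With the difference of mean log2, ratios with the other sign were 0.13 for *Hmox1*, 1.66 for *Ifit1* and 0.10 for *Insig1*. *Ifit1* was at 0.15 without the Slc26a4+/- cell of lowest IMC score, and *Pdk1* was at 0.0517 and *Cd14* at -0.0154 without cells over 50 CPM of blood, macrophage, vessel or hair cell markers. At P33 alone *Col1a1* was at -0.12. *Mgp* was at -1.37 with the mean of pool means, and *Fasn* at -0.19 with TPM per gene. Leaving out 1 pool at a time took *Cd14* from -0.0107 (without Slc26a4-/- P33) to 4.60, *Mgp* from -0.0044 (without Slc26a4+/- P33) to 2.11, *Hr* from -3.82 to 1.0101 (without Slc26a4+/- P33) and *Nrp1* from -3.23 (without Slc26a4-/- P33) to 4.51. The cause was not tested. Depth limits genes under 10 CPM, where 1 cell often held most of a genotype's CPM. Leaving out cells by other cells' markers or by the lowest score, and using only pools of at least 2 cells, were chosen after seeing the data.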
